A study of Mus musculus with 50 samples.

Results

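β-catenin was knocked down in QKO cells, a mouse embryonic stem (ES) cell line, and the change was read by RNA-seq across all genes. The comparison holds 6 of the 50 samples of the series: 3 libraries with a short hairpin against β-catenin (shBcat) and 3 with a hairpin against GFP (shGFP), a control that has no target in mouse cells unless GFP was added. Both groups were labelled as ES cells in 2i medium with a time of 48 h, and their labels give neither the start of that time, nor the alleles that QKO stands for, nor a strain, a clone or a GFP transgene. Whatever QKO denotes was shared by both groups, so its own effect is not measured by this comparison. The study's stated interest is how β-catenin and its protein complex control genes of development. V6.5 ES cells in 2i medium with shBcat (n = 2) or shGFP (n = 6) serve below only to show where the QKO cells differ. Their fit of 12 libraries also held hairpins labelled shE2F6 (n = 2) and shHP1r (n = 2), which enter its estimate of spread. V6.5 cells in 2i without a hairpin (n = 2) serve for levels only. The sample titles of these V6.5 libraries give no time, so the lines may not be matched in it. The labels do not say that replicates were separate cultures, and the spread behind every p-value may therefore be only technical.

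β-catenin joins classical cadherins to the actin skeleton through α-catenin, and in Wnt signalling it enters the nucleus and acts through the Tcf and Lef DNA-binding proteins. A destruction complex of Axin, APC, CK1 and GSK3 marks it for degradation, and the GSK3 inhibitor in 2i medium blocks that step. In naive ES cells the stabilised protein is known mainly for relieving repression by Tcf7l1, which supports genes such as Esrrb and Nanog.

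Values are TPM, a transcript's share of a library scaled to a fixed total and to transcript length, so levels of different genes can be set side by side. Of the 55421 genes listed, 15562 reached 1 TPM in at least 2 of the 6 libraries and were tested with limma on log2(TPM + 1). Each log2 change below is the shBcat mean minus the shGFP mean on that scale, on which low genes appear to change less than they do. A gene is said to rise or fall only where the p-value adjusted by the Benjamini-Hochberg method (adjusted p) was under 0.05. TPM keeps no depth, so the depth of these libraries is unknown. Between 14720 and 15146 genes reached 1 TPM per library, and mitochondrial transcripts made up 5.09% to 5.97% of the values.

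The libraries held ES cell transcripts at a steady level and fibroblast transcripts at a varying one. The summed TPM of 9 ES cell markers (Pou5f1, Sox2, Nanog, Esrrb, Zfp42, Tfcp2l1, Dppa5a, Fgf4 and Utf1) was 5276 to 6064 with shGFP and 5651 to 5999 with shBcat. The summed TPM of 12 fibroblast markers was 279.7 to 644 with shGFP and 86.6 to 110.0 with shBcat, and none of the 12 was under 0.1 TPM in every library. For replicates 1, 2 and 3 in that order, here and below, Col3a1, a fibrillar collagen chain of fibroblasts, stood at 140, 263 and 106 TPM with shGFP and at 23.1, 28.4 and 36.2 TPM with shBcat. The 2 V6.5 libraries in 2i without a hairpin, normalized separately, listed Col3a1 at 0.07 and 0 TPM. 5 smooth muscle markers summed to 111 to 343 TPM with shGFP and 29.7 to 46.3 TPM with shBcat. 6 primitive endoderm markers summed to 27.3 to 48.4 and 14.2 to 20.2 TPM. The sums for endothelial, trophoblast and blood markers overlapped between the groups. Neural markers summed to 88.1 to 89.98 TPM with shGFP and 94.2 to 100.2 TPM with shBcat, and Ptprc and Hbb-bs of the blood list were under 0.1 TPM in every library. In bulk RNA, fewer cells of a type and less RNA per cell cannot be told apart.

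Genes that move with this fibroblast share were therefore kept apart by their behaviour among the shGFP libraries alone. A fibroblast score was taken for each library as the mean log2(TPM + 1) of Col1a1, Col3a1 and Postn. Replicates 1, 2 and 3 scored 5.71, 6.37 and 5.19 with shGFP, and 3.28, 3.53 and 3.69 with shBcat, so the groups did not overlap. A gene was said to follow the score where its correlation with it over the 3 shGFP libraries was at least 0.95 and its log2 range there at least 0.5. Of the 15562 genes, 651 followed, and 135 met the mirrored rule with a correlation of -0.95 or less. With only 3 points this is a coarse filter, and genes whose range in the shGFP libraries was under 0.5 were not kept apart by it whatever their correlation.

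β-catenin knockdown in QKO cells came with lower Ctnnb1 and lower interferon response genes, while 1 of 18 tested Wnt target genes fell. Of the 21 tested interferon genes 13 fell, 9 of these among the 14 members that followed the fibroblast score, and 0 or 1 fell without shGFP replicate 1 or without shBcat replicate 2 or 3. In all, 91 genes rose (0.585% of those tested) and 243 fell (1.56%). Of the genes that fell, 66 followed the fibroblast score and 177 did not, and none of the 91 that rose followed it. Of the 177, 58 had a correlation with the score of at least 0.95 over the shGFP libraries but a range under 0.5. Among the followers 610 of 651 were lower on average in shBcat, with a median log2 change of -0.71, against -0.03 among the 14911 other genes. Without overlap between the groups, 1700 genes were higher (10.9%) and 3834 lower (24.6%) with shBcat. At 2-fold or more on the log2(TPM + 1) scale, 30 of those were higher (0.193%) and 230 lower (1.48%), and leaving out the followers left 30 and 55.

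The number of calls depended on single libraries and on the fibroblast score. It was 8 without shGFP replicate 1, 191 without shGFP replicate 2, 964 without shGFP replicate 3, 11 without shBcat replicate 2 and 10 without shBcat replicate 3, against 334 with all 6. With the score as a covariate no gene passed in limma, while 645 had an unadjusted p under 0.05, against 4464 without it. The score separated the groups, so the hairpin and the fibroblast share cannot be told apart by that fit. With median-of-ratios scaling the calls split into 170 that rose and 174 that fell.

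Ctnnb1, which encodes β-catenin (ENSMUSG00000006932, GRCm38 chromosome 9, 120933400 to 120960507), was the gene targeted. It stood at 528, 490 and 497 TPM with shGFP and at 48.4, 62.4 and 82.4 TPM with shBcat. The groups were far apart, and the shBcat libraries differed among themselves by more than the shGFP libraries did in relative terms. The mean fell from 505 ± 20.2 (SD, n = 3) to 64.4 ± 17.1 TPM (n = 3). On the log2 scale that was -2.98 (SE 0.18, limma, adjusted p = 0.0108). The shBcat mean was 0.128 times the shGFP mean. The call was lost without shGFP replicate 1 (adjusted p = 0.0559), without shBcat replicate 2 (adjusted p = 0.0622) and with the fibroblast score as a covariate (log2 change -2.59, adjusted p = 0.99). The position of the hairpin site within the gene is not known here.

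The protein-coding gene next to Ctnnb1, Ulk4, a member of the ULK kinase family (chromosome 9, 120964454 to 121286159), fell with it. Its annotated span begins 3946 bases beyond the end of Ctnnb1. Ulk4 stood at 9.19, 7.53 and 7.85 TPM with shGFP and at 1.77, 1.51 and 1.84 TPM with shBcat, without overlap. The log2 change was -1.76 (SE 0.11, adjusted p = 0.00354), the second largest fall among the named genes outside the followers and the interferon-induced genes, after Ctnnb1. Trak1, the next protein-coding gene on the far side of Ulk4, overlapped between the groups, at 40.3, 34.6 and 41.1 TPM with shGFP and 39.7, 40.7 and 40.6 TPM with shBcat. The V6.5 libraries without a hairpin, in their own table, listed Ulk4 at 1.84 and 1.47 TPM. Whether the reads were counted by strand is not stated in the sources used here.

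**Figure D1:**
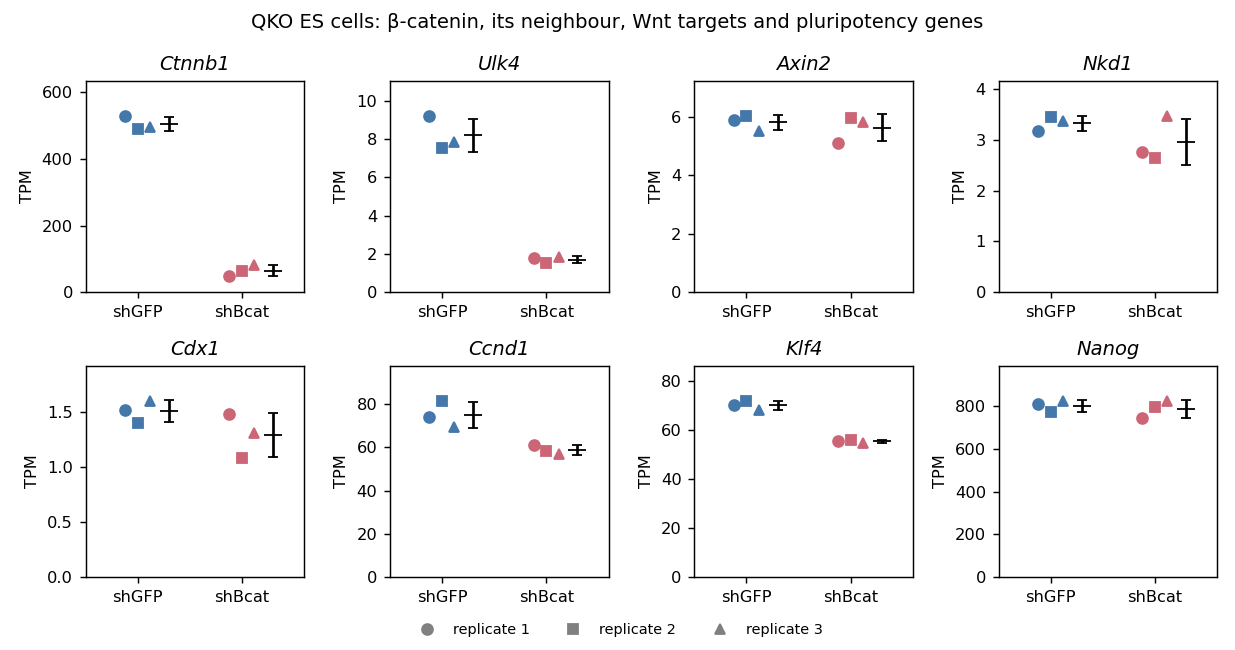
TPM of 8 genes in each QKO library, with a separate linear axis from 0 for each gene, 1 point per library (circle, square and triangle for replicates 1, 2 and 3) and the mean ± SD of 3 libraries beside them. Ctnnb1 and Ulk4 are separated widely, Ccnd1 and Klf4 by a smaller gap, and the groups overlap for Axin2, Nkd1, Cdx1 and Nanog.

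Partners of β-catenin at the membrane and in its destruction complex gave no call besides Ctnnb1 itself. Of 13 tested genes of β-catenin and its adhesion partners, only Ctnnb1 fell and none rose, with a median log2 change of 0.04 against -0.04 over all genes tested. Jup, which encodes plakoglobin, the closest relative of β-catenin at cell junctions, stood at 92.0, 88.4 and 91.7 TPM with shGFP and 97.2, 95.4 and 86.8 TPM with shBcat. These overlapped (log2 change 0.04, SE 0.05). Cdh1, which encodes E-cadherin, the main ES cell cadherin, was at 183, 174 and 195 TPM against 208, 224 and 228 TPM and missed the threshold (log2 change 0.25, SE 0.06, adjusted p = 0.0544). Dsp, the desmosomal linker desmoplakin, was at 27.8, 22.3 and 31.1 TPM against 38.1, 40.3 and 40.6 TPM (log2 change 0.55, SE 0.11, adjusted p = 0.0523). Cdh2, another cadherin gene of the list, was lower without overlap and missed the threshold (log2 change -0.82, limma, adjusted p = 0.0561). Its shBcat mean was 0.495 times the shGFP mean. None of 11 destruction complex genes and none of 15 nuclear cofactors passed. The largest difference among the cofactors was that of Tle2, a Groucho-family corepressor of Tcf proteins, at -0.47 (SE 0.12, adjusted p = 0.0694).

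Of the 4 Tcf and Lef genes, the DNA-binding partners of β-catenin, 3 overlapped between the groups and the other lay near 0. Tcf7l1, the repressor that β-catenin counters in ES cells, was at 50.1, 53.4 and 51.4 TPM with shGFP and 55.1, 51.9 and 53.9 TPM with shBcat. Tcf7 was at 7.59, 6.83 and 7.40 against 6.55, 7.73 and 8.57 TPM, and Tcf7l2 at 7.08, 7.53 and 6.28 against 7.71, 6.06 and 7.69 TPM. Their log2 changes were 0.05 (SE 0.04), 0.05 (SE 0.10) and 0.03 (SE 0.11). Lef1, usually itself a Wnt target, was at 0.11, 0.10 and 0.08 TPM with shGFP and 0.32, 0.27 and 1.01 TPM with shBcat, too low to be tested. In the separate table of V6.5 cells without a hairpin, Tcf7l1 was at 21.3 and 22.3 TPM, Tcf7 at 33.3 and 35.8, Tcf7l2 at 4.07 and 4.43 and Lef1 at 5.33 and 5.12. A transcript level says nothing of whether a gene carries a deletion or makes protein.

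Of 18 tested Wnt target genes, 1 fell with shBcat and none rose, against 1.56% and 0.585% of all genes tested. With median-of-ratios scaling 1 rose and none fell. The tested members ranged from Ascl2, at about 1 TPM, to Sall4, a zinc finger factor of ES cells, at 133, 130 and 140 TPM with shGFP and 147, 151 and 155 TPM with shBcat. Their median log2 change was -0.08, with 4 genes higher and 6 lower without overlap. Over all genes tested, 10.9% were higher and 24.6% lower without overlap. Axin2, the feedback component of the destruction complex and a standard readout of the pathway, stood at 5.89, 6.03 and 5.53 TPM with shGFP and 5.12, 5.97 and 5.83 TPM with shBcat. The groups overlapped, with a log2 change of -0.04 (SE 0.09). Nkd1, another feedback inhibitor, was at 3.17, 3.45 and 3.38 against 2.77, 2.64 and 3.47 TPM (log2 change -0.14, SE 0.11). Cdx1, a caudal homeobox gene directly driven by Wnt, was at 1.52, 1.4 and 1.6 against 1.48, 1.08 and 1.31 TPM (log2 change -0.13, SE 0.12).

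Some direct targets barely registered. Sp5 was at 0.02, 0.06 and 0.04 TPM with shGFP and 0.06, 0.08 and 0.03 TPM with shBcat, T, which encodes Brachyury, was at most 0.36 TPM in any library, and Cdx2 at most 0.22 TPM. Ccnd1, which encodes cyclin D1, was the gene that fell, from 74.3, 81.5 and 69.2 TPM to 61.2, 58.3 and 56.9 TPM (log2 change -0.34, SE 0.06, adjusted p = 0.0481). Its shGFP libraries rank as the fibroblast score does, with a range too small for the rule on followers. Of the members with larger differences, Cd44 (-1.52) and Ccn4 (-1.24) followed the fibroblast score and missed the threshold. Myc was lower without overlap and missed it too (log2 change -0.86, limma, adjusted p = 0.0704). In V6.5 cells Myc ranged from 0.804 to 3.59 FPKM with shGFP and was at 0.225 and 0.212 FPKM with shBcat, and it did not pass there either. Nkx1-2, a homeobox gene of the caudal progenitor zone, was at most 1.37 TPM with shGFP and at least 1.85 TPM with shBcat, higher without overlap, and did not pass (log2 change 0.53, SE 0.13, adjusted p = 0.0653).

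Among 30 tested Wnt ligands, receptors and modulators none passed, and the 2 largest differences were of followers of the fibroblast score. Wls, the carrier that brings Wnt proteins to the cell surface, was at 53.7, 82.1 and 43.3 TPM with shGFP against 26.5, 21.9 and 18.2 TPM. Fzd1, a Wnt receptor, was at 2.96, 4.98 and 2.29 against 1.13, 0.95 and 0.82 TPM. Both were highest in shGFP replicate 2, which also had the most collagen transcripts.

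In V6.5 cells with the same 2 hairpin labels, several of these genes moved far more. That table holds FPKM, normalized separately, and was fitted with limma on log2(FPKM + 1) over 12 hairpin libraries, those with shE2F6 and shHP1r included. With shBcat against shGFP, 505 of 14407 genes rose (3.51%) and 750 fell (5.21%). Ctnnb1 fell there by 3.93 on the log2 scale, more than in QKO cells. Axin2 ranged from 12 to 13 FPKM with a median of 12.4 in the 6 shGFP libraries and was at 0.945 and 0.911 FPKM with shBcat (log2 change -2.80, SE 0.11, adjusted p = 7.6e-07). Cdx1 ranged from 8.11 to 27.8 FPKM (median 20.9) against 0.102 and 0.112 FPKM (log2 change -4.03, SE 0.43, adjusted p = 3e-04). Nkx1-2 ranged from 7.28 to 13.2 FPKM (median 10.9) against 0.245 and 0.300 FPKM, a fall of 3.15 on the log2 scale (adjusted p = 2.39e-05) where the QKO libraries were higher. Of 14 Wnt target genes tested in both lines, 6 fell in V6.5 cells and 1 in QKO cells, with median log2 changes of -0.45 and -0.05. The 6 shGFP libraries of V6.5 cells lay in 3 pairs, with median absolute log2 differences of 0.0506 to 0.0657 within and 0.158 to 0.371 across them, so the p-values of that fit may be too small. V6.5 libraries without a hairpin, in their own table, listed Axin2 at 21.6 and 23.3, Cdx1 at 52.6 and 54.0 and Nkx1-2 at 16.1 and 16.8 TPM. The QKO shGFP levels given above were lower for each, and a low gene has little room to fall on this scale. The difference between the lines was not tested, because the tables were normalized separately.

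The 2-cell genes, a set that a few ES cells switch on briefly, such as the Zscan4 cluster, mostly fell in V6.5 cells, while none passed the test in QKO cells. In QKO cells none of 23 tested rose or fell, 7 were higher and 1 lower without overlap, and the median log2 change was 0.17. Over all genes tested there, 10.9% were higher and 24.6% lower without overlap. Zscan4c was at 47.99, 38.2 and 48.7 TPM with shGFP and 53.9, 50.5 and 46.0 TPM with shBcat, which overlapped. Zscan4e was at 39.9, 36.3 and 40.4 against 50.5, 49.3 and 45.6 TPM and missed the threshold (log2 change 0.31, SE 0.06, adjusted p = 0.051). Members of such clusters share reads, so their single values are uncertain. In V6.5 cells 19 of the 21 members tested in both lines fell, against 5.15% of all genes tested in both. Their median was -1.67 there, against 0.17 in QKO cells. Zscan4c there ranged from 27.7 to 34.1 FPKM (median 31.8) with shGFP and was at 2.98 and 2.56 FPKM with shBcat.

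Over all genes the calls of the lines shared few members. Of the 644 genes that fell in V6.5 cells and were tested in both tables, 12 fell in QKO cells, 1.86%, against 1.37% of all 12511 genes tested in both, and 7 rose. Of the 469 that rose in V6.5 cells 2 rose in QKO cells, 0.426% against 0.599% of all, and 4 fell. Taken from the other side, 12 of the 171 that fell in QKO cells fell in V6.5 cells, 7.02% against 5.15% of all, and 4 rose. Of the 75 that rose in QKO cells 2 rose in V6.5 cells, 2.67% against 3.75% of all, and 7 fell. The genes that fell in V6.5 cells had a median log2 change of -0.04 in QKO cells, and so did all genes tested in both.

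**Figure D2:**
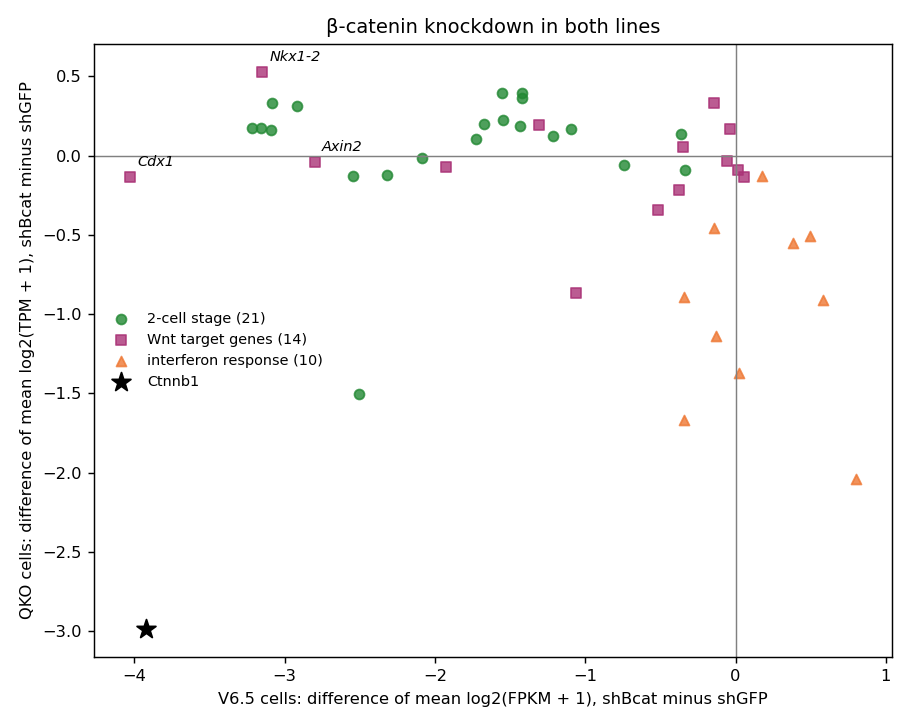
Difference between shBcat and shGFP means in V6.5 cells (horizontal, log2(FPKM + 1)) and in QKO cells (vertical, log2(TPM + 1)) for 21 2-cell genes, 14 Wnt target genes and 10 interferon response genes tested in both lines, and for Ctnnb1. Most 2-cell genes and the targets Axin2, Cdx1 and Nkx1-2 lie far to the left near the horizontal line, and Ctnnb1 is low on both axes.

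The naive and core pluripotency genes that passed the test changed by under 2-fold. Of 26 tested naive pluripotency genes, 1 rose and 2 fell, with a median log2 change of -0.01, and of 14 core genes 2 rose and none fell, with a median of 0.10. Over all genes 0.585% rose and 1.56% fell. Nanog was at 809, 773 and 826 TPM with shGFP and 744, 799 and 826 TPM with shBcat, and Pou5f1, which encodes Oct4, at 971, 890 and 978 against 974, 992 and 980 TPM. Both overlapped. Esrrb was at 200.1, 194 and 199 against 205, 212 and 215 TPM, higher without overlap by 0.09 on the log2 scale (SE 0.04, adjusted p = 0.142). Tfcp2l1 and Sox2 overlapped between the groups as well, with log2 changes of 0.06 and 0.11.

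Klf4, a naive pluripotency factor and a target of LIF and STAT3 signalling, fell. It stood at 70.2, 71.9 and 68.2 TPM with shGFP and 55.4, 55.9 and 54.8 TPM with shBcat, 2 narrow groups with a clear gap (log2 change -0.33, SE 0.04, adjusted p = 0.0229). Mras, a Ras-family GTPase, fell from 45.9, 47.6 and 43.5 to 35.2, 34.6 and 37.3 TPM (log2 change -0.35, SE 0.05, adjusted p = 0.0408). Both rank with the fibroblast score among the shGFP libraries, within a narrow range. Manba, a lysosomal mannosidase, rose from 15.0, 16.2 and 15.6 to 21.8, 21.4 and 19.03 TPM (log2 change 0.39, SE 0.07, adjusted p = 0.046). In the core list, Tdgf1, which encodes the Nodal coreceptor Cripto, rose from 188, 174 and 191 to 221, 229 and 233 TPM (log2 change 0.30, SE 0.05, adjusted p = 0.0408). Jak1, the kinase that carries the LIF signal to STAT3, fell with Klf4, the 2 calls among 13 genes of that pathway, and Jak1 ranks with the fibroblast score among the shGFP libraries.

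Genes of exit from the naive state and of lineages gave few calls. Over all genes tested 0.585% rose and 1.56% fell. Eomes, a T-box factor of mesendoderm and trophoblast, rose from 4.99, 4.48 and 5.30 to 7.18, 7.69 and 6.97 TPM (log2 change 0.48, SE 0.09, adjusted p = 0.047). Hmga2, a chromatin protein of primed cells that fibroblasts also express, was the 1 formative gene of 19 that fell, from 7.05, 11.6 and 5.57 to 2.81, 2.19 and 1.94 TPM (log2 change -1.41, SE 0.24, adjusted p = 0.046), and it followed the fibroblast score. Otx2 and Fgf5, early markers of the formative epiblast, overlapped between the groups, and Fgf5 was at most 0.21 TPM. Dnmt3b, a de novo DNA methyltransferase of that stage, was at 11.3, 13.2 and 12.2 against 10.9, 10.0 and 10.1 TPM (log2 change -0.22, SE 0.08, adjusted p = 0.111). Of 17 tested Hox genes none passed, 10 were lower without overlap, against 24.6% of all genes, and the median log2 change was -0.33. Hoxb9, the most abundant of those with the smallest p, was at 11.7, 11.9 and 11.6 against 9.43, 7.87 and 6.88 TPM (log2 change -0.50, SE 0.11, adjusted p = 0.0529).

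Genes of the chromatin complexes that the series studies with β-catenin gave 2 calls. Over all genes 1.56% fell. With median-of-ratios scaling, with no filter, or without the variance trend and robust moderation, these complexes gave no call. Cbx3, which encodes HP1γ, a reader of methylated H3K9, fell from 225, 212 and 223 to 182, 190 and 179 TPM (log2 change -0.26, SE 0.04, adjusted p = 0.0408), the 1 call among 22 genes of the E2F6, HP1 and PRC1.6 list. E2f6 itself was at 26.5, 25.8 and 23.3 against 22.0, 21.4 and 20.6 TPM and missed the threshold (log2 change -0.23, SE 0.06, adjusted p = 0.0743). Epop, a PRC2-associated protein of ES cells, fell from 140, 147 and 151 to 125, 109 and 107 TPM (log2 change -0.36, SE 0.06, adjusted p = 0.047), the 1 call among 12 PRC2 genes. Of 28 germline and meiosis genes none was called in those other fits, and in the main fit 1 fell and none rose. It was Piwil2, a PIWI protein of the piRNA pathway, at 10.6, 9.47 and 10.4 against 7.81, 7.06 and 6.62 TPM (log2 change -0.46, SE 0.08, adjusted p = 0.047).

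Interferon response genes were lower with shBcat, and part of them moved with the fibroblast score. Type I interferon acts through a complex that holds STAT2 and IRF9 and binds the interferon-stimulated response element in the promoters of antiviral genes. Of 21 tested members 13 fell and none rose, against 1.56% of all genes that fell. Without overlap 20 were lower, against 24.6% of all genes. The median log2 change was -1.14. Of the members, 14 followed the fibroblast score, and 9 of the 13 that fell were among these. The other 7 had a median of -0.51, and 4 of them fell. Without shGFP replicate 1 no member passed, and without shBcat replicate 2 or 3 only 1 did, while 17 to 21 members had an unadjusted p under 0.05 in each leave-one-out fit of limma. With the score as a covariate none passed in limma, 3 were lower and 1 higher at an unadjusted p under 0.05, and the median was -0.26.

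Promoters of 3 of the genes that fell are shown because they carry the letters of that element. The windows are RefSeq's, GRCm38.p6, 250 bases before to 50 after the start of transcription, read 5′ to 3′ on the strand of the gene. Capitals mark GAAANNGAAA or its reverse complement TTTCNNTTTC, overlapping matches merged. Isg15 (chr4:156200769-156201068, minus strand) has 3 overlapping matches, Ifit1 (chr19:34640639-34640938, plus strand) has 2 and Ddx58 (chr4:40239776-40240075, minus strand) has 1, which starts at base 3 of the transcript.
Isg15: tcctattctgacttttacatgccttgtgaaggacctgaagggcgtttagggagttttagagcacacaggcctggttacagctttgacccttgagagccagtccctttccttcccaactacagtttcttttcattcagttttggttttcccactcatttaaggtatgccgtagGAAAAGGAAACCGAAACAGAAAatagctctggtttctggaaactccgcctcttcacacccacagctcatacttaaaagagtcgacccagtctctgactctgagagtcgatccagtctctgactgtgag
Ifit1: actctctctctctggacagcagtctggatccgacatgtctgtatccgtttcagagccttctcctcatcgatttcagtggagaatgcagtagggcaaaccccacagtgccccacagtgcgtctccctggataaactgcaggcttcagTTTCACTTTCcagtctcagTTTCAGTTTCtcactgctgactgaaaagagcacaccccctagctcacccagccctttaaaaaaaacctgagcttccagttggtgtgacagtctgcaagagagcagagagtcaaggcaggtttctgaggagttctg
Ddx58: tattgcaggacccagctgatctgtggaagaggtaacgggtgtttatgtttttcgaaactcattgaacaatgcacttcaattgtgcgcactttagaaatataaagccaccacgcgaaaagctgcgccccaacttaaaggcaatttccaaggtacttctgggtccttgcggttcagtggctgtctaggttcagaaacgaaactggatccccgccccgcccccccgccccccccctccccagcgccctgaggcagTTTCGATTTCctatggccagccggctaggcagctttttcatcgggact
Of the 13 interferon genes that fell 10 had a window, and 6 of those held a match, 60%, against 368 of 10456 tested genes with a window, 3.52%. Of the 18 tested members of the list with a window, fallen or not, 9 held a match, 50%. Among all 166 genes that fell and had a window 20 held one, 12.0%, and among 41 that rose 3 did, 7.32%. Oasl1, Oasl2, Irf7 and Irf9 fell and have no match in their windows, which says only that these letters are not there.

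The members that followed the score had the widest spread among the controls. Isg15, a ubiquitin-like antiviral protein, stood at 15.8, 24.6 and 7.53 TPM with shGFP and at 1.14, 1.08 and 0.99 TPM with shBcat (log2 change -2.90, SE 0.38, adjusted p = 0.0408). Even the lowest control library was well above every shBcat library. Bst2, the tetherin that holds budding virions, was at 51.7, 67.2 and 39.9 against 11.1, 11.3 and 13.3 TPM (log2 change -2.04, SE 0.18, adjusted p = 0.0187). Ifit1, Ifit3 and Usp18 fell by 2.17, 2.23 and 2.14 on the log2 scale. All of these were highest in shGFP replicate 2, and lowest among the controls in replicate 3, as the collagens were.

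Other interferon-induced genes did not rank with the collagens. Ifi27, an interferon-induced membrane protein (GRCm38 chromosome 12, 103434189 to 103440245), was at 76.9, 70.9 and 60.5 TPM with shGFP, highest in replicate 1, and at 17.1, 13.8 and 15.5 TPM with shBcat. It had the largest fall of the named genes outside the followers after Ctnnb1, a log2 change of -2.09 (SE 0.10, adjusted p = 0.0025). Oas1b, of the oligoadenylate synthetase family, was at 4.90, 4.07 and 3.74 against 1.30, 1.03 and 1.09 TPM (log2 change -1.29, SE 0.12, adjusted p = 0.0152). Oasl1, of the same family, was at 7.06, 7.82 and 7.47 TPM with shGFP, a narrow range, and 3.68, 3.87 and 3.80 TPM with shBcat (log2 change -0.82, SE 0.08, adjusted p = 0.0152). Ifitm3, which blocks viral entry, was at 217, 206 and 189 against 138, 143 and 148 TPM (log2 change -0.51, SE 0.06, adjusted p = 0.0218).

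Between these lay genes with a range among the controls under the limit of the rule. Ddx58, which encodes the RNA sensor RIG-I, was at 21.6, 26.5 and 19.5 TPM with shGFP and 7.50, 8.23 and 8.40 TPM with shBcat (log2 change -1.37, SE 0.11, adjusted p = 0.0108). Irf9 was at 26.8, 30.8 and 24.1 against 14.9, 14.4 and 13.1 TPM (log2 change -0.89, SE 0.10, adjusted p = 0.0198). Both rank with the collagens among the shGFP libraries. Stat2 (34.4, 38.3 and 35.5 against 33.2, 33.3 and 31.9 TPM), Tap1 and Psmb9 did not pass. In V6.5 cells, where 10 of the members were tested, none passed and the median log2 change was 0.10, against -0.90 for the same 10 in QKO cells. Isg15, Ifit1, Ifit3 and Usp18 were not among these 10. V6.5 cells without a hairpin, in their own table, listed Isg15 at 0.13 and 0.32 and Ifit1 at 0 and 0.01 TPM. Ifit3 was listed at 0 and 0 and Usp18 at 0.05 and 0.03 TPM, and genes so low have little room to fall. Of the 10, Bst2 was listed there at 161 and 157 TPM and Ifitm3 at 129 and 131 TPM. The part of the fibroblast share in the interferon falls of QKO cells was not tested apart from the values given.

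**Figure D3:**
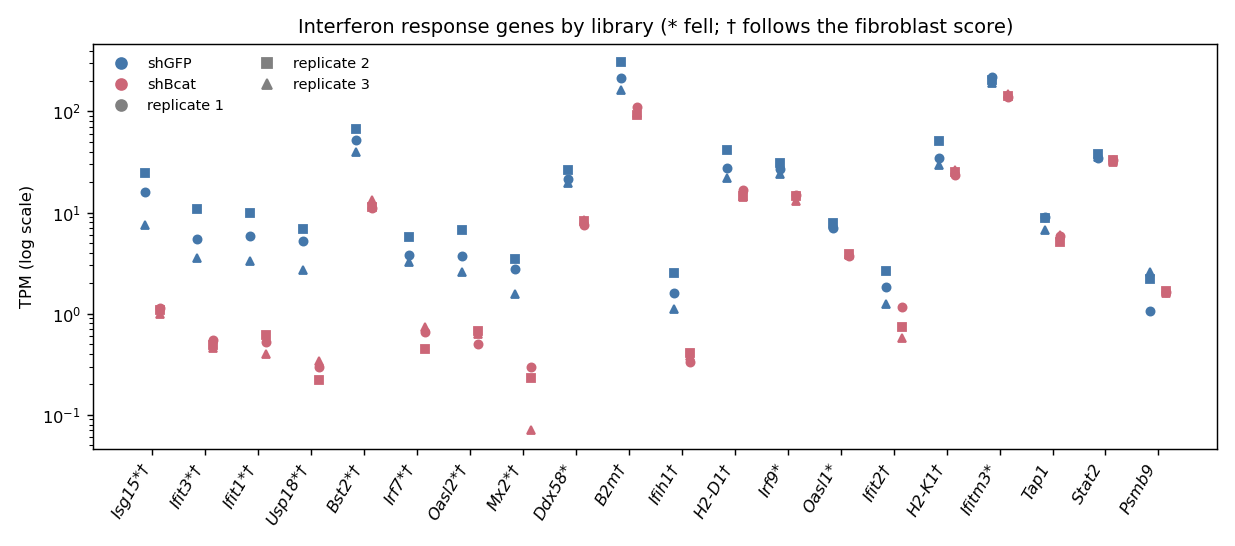
TPM on a log axis of 20 of the 21 tested interferon response genes, ordered by log2 change, 1 point per library. The shBcat points lie below the shGFP points for every gene shown except Psmb9, and the shGFP points of Isg15, Ifit1 and Ifit3 spread more widely than those of Ddx58, Oasl1 or Ifitm3.

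The fibroblast and matrix genes define the share that was kept apart, so their values are a description. Of 33 tested members 28 followed the score, 10 fell, against 1.56% of all genes, and none rose. Without overlap 30 were lower, against 24.6% of all genes, and the median log2 change was -1.32. Col1a1 was at 85.1, 135 and 55.3 TPM with shGFP and 14.7, 20.0 and 20.1 TPM with shBcat, and Postn, the matrix protein periostin, at 10.8, 14.8 and 7.09 against 1.45, 1.49 and 1.77 TPM. Dcn, the proteoglycan decorin, was at 30.5, 49.0 and 21.1 against 6.45, 6.14 and 6.76 TPM. Fn1, the fibronectin gene that ES cells also express, overlapped, at 1005, 1167 and 1036 against 1132, 1112 and 1064 TPM. The counts of falls in this list were 28 without shGFP replicate 3, 2 without shBcat replicate 1 and 0 without shGFP replicate 1 or without shBcat replicate 2 or 3.

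Contractile genes were also lower, but none passed. All 16 tested members were lower without overlap, against 24.6% of all genes, with a median log2 change of -1.01. Of these 14 followed the score and none fell by the test. Acta2, smooth muscle actin, was at 66.0, 134 and 39.2 TPM with shGFP and 15.6, 9.26 and 6.11 TPM with shBcat (log2 change -2.75, SE 0.52, adjusted p = 0.0552). Tagln, an actin-binding protein of the same cells, was at 92.1, 180 and 55.9 against 19.4, 17.1 and 13.8 TPM (log2 change -2.49, SE 0.43, adjusted p = 0.0512). In the shBcat libraries both were highest in replicate 1, where the 3 collagen and periostin genes of the score were lowest, so these marker sets did not rank alike there.

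Hprt, the purine salvage enzyme often used as a reference gene, also followed the score. It fell from 7.64, 13.2 and 6.03 to 2.00, 1.95 and 2.81 TPM (log2 change -1.56, SE 0.26, adjusted p = 0.046). In the separate table of V6.5 cells without a hairpin it was at 205 and 199 TPM. B2m, the light chain of MHC class I and another common reference gene, followed the score too, at 215, 305 and 163 against 110.5, 93.1 and 95.6 TPM (adjusted p = 0.0574).

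**Figure D4:**
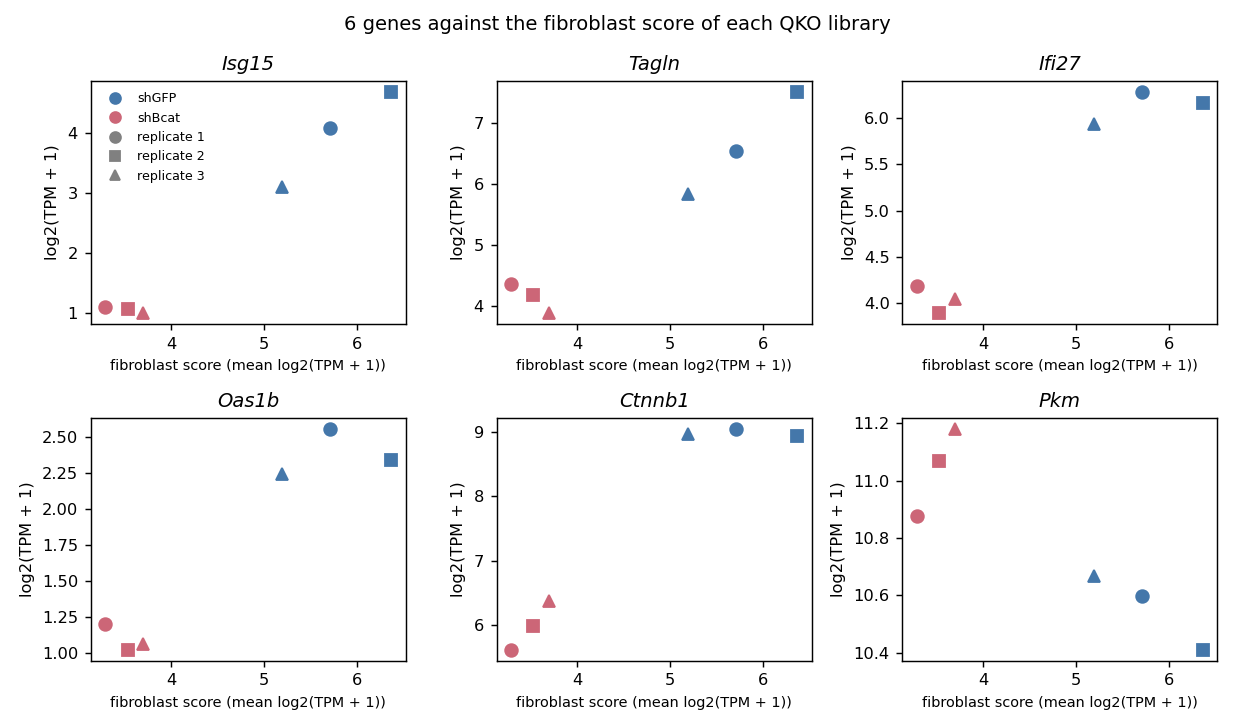
log2(TPM + 1) of 6 genes (vertical) against the fibroblast score, the mean log2(TPM + 1) of Col1a1, Col3a1 and Postn (horizontal), with 1 point per QKO library. Isg15 and Tagln climb with the score among the shGFP libraries, and Ifi27, Oas1b and Ctnnb1 do not rank with it there. Pkm descends as the score climbs among the shGFP libraries, and climbs with it among the shBcat libraries.

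Outside the members of the interferon list and the followers, the largest falls of named genes after Ctnnb1, Ifi27 and Ulk4 were of a mixed group. Tgfb3, a TGFβ ligand, went from 6.61, 10.3 and 6.34 to 1.44, 1.56 and 1.95 TPM (log2 change -1.70, SE 0.18, adjusted p = 0.0197). Pcdh7, a protocadherin, went from 2.93, 6.05 and 2.67 to 0.87, 0.78 and 0.76 TPM (log2 change -1.37, adjusted p = 0.047), Bmper, an extracellular BMP regulator, fell by 1.23 on the log2 scale, and Pdpn, the membrane glycoprotein podoplanin, by 0.97. All 4 were highest in shGFP replicate 2, with correlations to the score of 0.92 to 0.94, just under the limit of 0.95. Tgtp1 and Oas2, interferon-induced antiviral genes, and Lgals3bp, a secreted galectin-binding protein, fell by 1.38, 1.19 and 1.49, with correlations of 0.98, 0.97 and 0.99 but a range under 0.5.

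The genes that rose were fewer, with a median log2 change of 0.43 over the 91, against -0.58 over the 243 that fell. The largest change of any gene was nonetheless a rise, that of Gm10222 (7.15), and 40 of the 91 bore only predicted names, like it, or were pseudogenes or genes of small RNAs or ribosomal proteins. Aire, a transcriptional regulator best known from the thymus, rose from 4.18, 4.46 and 6.21 to 10.5, 15.6 and 15.8 TPM (log2 change 1.33, SE 0.18, adjusted p = 0.0401), and the shBcat mean was 2.82 times the shGFP mean. A2m, a protease inhibitor, Camk2b, a calcium-dependent kinase, and Ephx2, an epoxide hydrolase, rose by 0.93, 0.65 and 0.64 on the log2 scale. Nphs1, which encodes nephrin, rose from 25.7, 22.6 and 29.6 to 37.1, 43.9 and 40.4 TPM, and its antisense partner Nphs1os from 7.31, 6.47 and 7.48 to 9.51, 12.1 and 11.2 TPM. Without a statement on strand in the counting, these 2 cannot be told apart.

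The largest log2 change of a named gene that rose was that of Hist1h2ao, a histone H2A gene, at 0, 0 and 0.86 TPM against 5.84, 6.29 and 13.3 TPM. Near-identical copies share its reads, so that value is uncertain. Ccng2, an atypical cyclin, rose from 8.81, 8.62 and 8.34 to 11.9, 13.04 and 14.03 TPM (log2 change 0.54, SE 0.08, adjusted p = 0.0377), with narrow controls that did not rank against the score. Of the 91 genes that rose, 72 had a negative correlation with the score over the 3 shGFP libraries, 79.1%, against 43.0% of all genes tested, and 27 had one of -0.95 or less, 29.7% against 10.0%.

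Glycolysis genes were higher almost throughout, although only 1 passed. Of 23 tested entries for 22 glycolysis genes, 1 rose and none fell, against 0.585% of all genes that rose. 19 were higher without overlap, against 10.9% of all genes, and the median log2 change was 0.42, against -0.04 over all genes. Gpi1, the isomerase of the second step, was the one that rose, from 624, 597 and 650 to 756, 845 and 854 TPM (log2 change 0.39, SE 0.06, adjusted p = 0.0408). Pkm, pyruvate kinase, was at 1550, 1361 and 1624 against 1877, 2144 and 2319 TPM (log2 change 0.48, SE 0.09, adjusted p = 0.0512). Ldha, which turns pyruvate into lactate, was at 468, 368 and 525 against 657, 837 and 856 TPM (log2 change 0.79, adjusted p = 0.056), and Slc16a3, a lactate exporter, at 30.6, 19.5 and 41.1 against 52.6, 76.1 and 73.3 TPM (log2 change 1.17, adjusted p = 0.0738). In these 4 genes the lowest control was shGFP replicate 2, which had the highest fibroblast score. Among the shBcat libraries they were lowest in replicate 1, which had the lowest score.

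**Figure D5:**
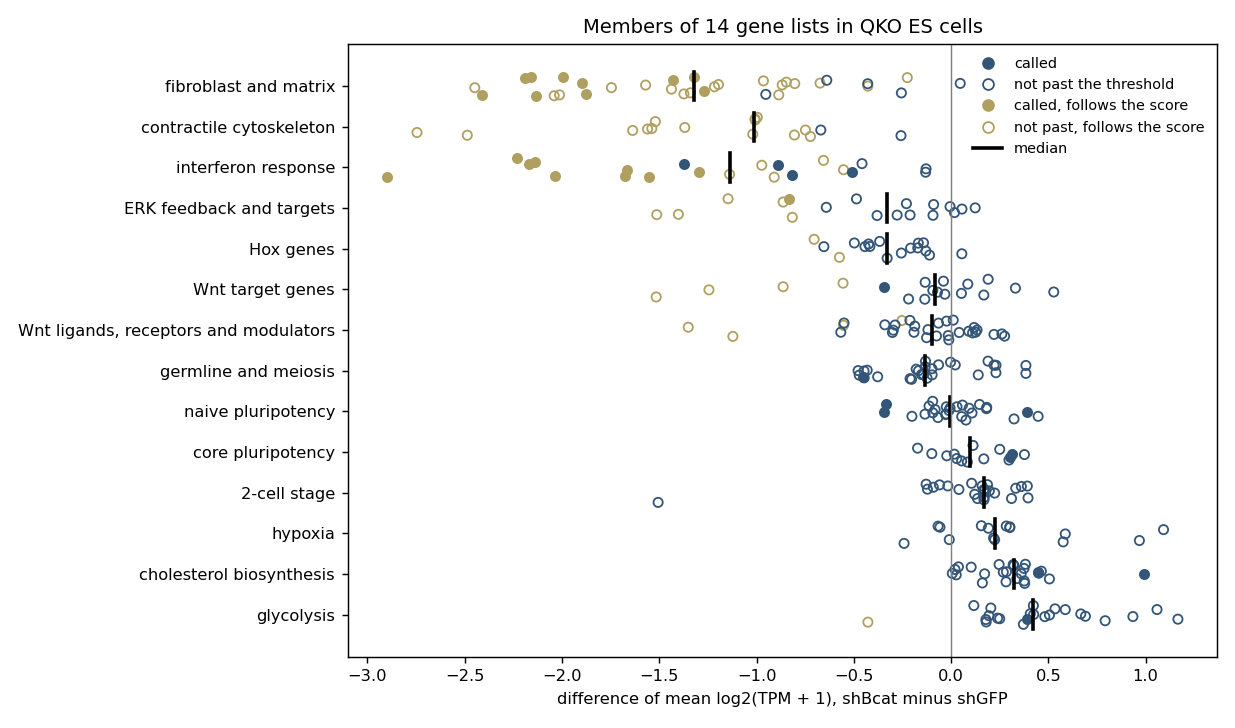
Differences of mean log2(TPM + 1), shBcat minus shGFP, for the tested members of 14 gene lists, 1 point per gene, filled where the gene was called, ochre where it follows the fibroblast score, with the median as a black bar. The medians run from -1.32 for fibroblast and matrix genes to 0.42 for glycolysis genes, and most filled points lie in the fibroblast and interferon lists.

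Hypoxia-inducible and sterol genes leaned the same way. Of 15 tested hypoxia genes none passed, 9 were higher and 1 lower without overlap, with a median log2 change of 0.22. The shares without overlap over all genes were 10.9% higher and 24.6% lower. Egln3, an oxygen-sensing prolyl hydroxylase, was at 3.06, 2.90 and 4.59 against 5.66, 9.14 and 11.7 TPM, and Bnip3, a mitophagy receptor, at 37.6, 37.4 and 51.7 against 60.9, 93.7 and 98.8 TPM. In both the shBcat replicate 1 was the lowest of its group. Of 24 cholesterol synthesis genes 2 rose, against 0.585% of all genes, and none fell. Without overlap 17 were higher, against 10.9% of all genes, and the median was 0.32. Lss, lanosterol synthase, rose from 38.9, 31.9 and 35.1 to 47.0, 47.6 and 50.4 TPM (log2 change 0.45, SE 0.07, adjusted p = 0.0446). With the score as a covariate no member of either the glycolysis or the sterol list passed in limma or reached an unadjusted p under 0.05. The sterol median was then -0.11, and the glycolysis median 0.14.

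Growth and stress lists were mostly flat or lower. None of 30 E2F cell cycle genes passed, with a median log2 change of 0.00. Of 18 ERK feedback and target genes 1 fell, against 1.56% of all genes. Without overlap 11 were lower, against 24.6% of all genes, and the median was -0.33. The one that fell was Phlda1, an ERK-induced gene, at 6.48, 8.41 and 5.40 against 3.51, 3.12 and 3.29 TPM (adjusted p = 0.046). It followed the fibroblast score, as did 5 other members. Of 18 p53 and apoptosis genes 1 fell and none rose, against 1.56% and 0.585% of all genes. Without overlap 7 were lower, against 24.6% of all genes. The gene that fell was Ccng1, a p53-induced cyclin, from 266, 279 and 267 to 232, 211 and 194 TPM (log2 change -0.35, SE 0.06, adjusted p = 0.047). None of 22 ATF4 stress genes passed, and without overlap 9 were lower and 2 higher, against 24.6% and 10.9% of all genes.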

How the data were processed

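RNA was extracted with TRIzol, treated with DNase and made into libraries with a TruSeq RNA kit, per the labels' protocols. The authors deposited TPM values for the 6 QKO libraries. The submitters' processing notes name bcl2fastq 2.18, STAR, RSEM and Bowtie2 for these samples and the mm10 build, which is GRCm38. The authors deposited FPKM values for the V6.5 hairpin libraries, and the notes name bcl2fastq 2.18, TopHat2 2.0.13, Cufflinks 2.2.1 and Bowtie2 for them. The versions of STAR, RSEM and Bowtie2 are not given in the sources used here. The FPKM table held 1 further column of per-sample values, which was not used.

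From the deposited values, log2(value + 1) was fitted with limma 3.58.1 and statmod 1.5.0 (R 4.3.3), with a variance trend and robust moderation, over genes at 1 or more in at least 2 libraries. Tests were two-sided, with Benjamini-Hochberg adjustment over all genes tested and a threshold of 0.05. The 6 QKO libraries entered 1 fit, and the 12 V6.5 hairpin libraries another. On simulated QKO values the fit called 97 of 100 genes changed 2-fold, 95 of 100 changed 4-fold and 17 of 15362 unchanged genes. The simulated noise was independent between genes and drawn with the fit's own spread, and the changed genes were not low ones. Such values lack the shared fibroblast variation of the real libraries, so they do not show how many real changes the fit calls. Named genes were a fixed set of 22 Wnt and pluripotency genes, up to 15 called genes in each direction outside the followers with a mean of at least 2 TPM, up to 4 of each list by p, and up to 10 followers by range. The largest rises and falls pass over genes with only a predicted name, pseudogenes, and genes of small RNAs or ribosomal proteins. Further list members were named after their values were seen. The members and gene lists were chosen with earlier results of these data known, so no list count is independent support. Alternatives were other pseudocounts and filters, leaving out each library, a replicate block, median-of-ratios scaling and the fibroblast score as a covariate. Gene positions and promoter windows come from RefSeq, GRCm38.p6. A few genes that the rule names are counted in the lists but not reported here.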

Additional observations from a re-analysis of the deposited data

Results flagged for a closer look

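Among 145 named genes tested in both lines, 28 lay without overlap in one direction in V6.5 cells and in the other in QKO cells, and 14 of these passed the test in at least 1 line. The difference between the lines was not tested in any of them, since the tables were normalized separately. Apart from the fixed set, these genes were named for their values in QKO cells, and the V6.5 side rests on 2 shBcat libraries. No such count was made over all genes tested in both lines, so the 28 have no background share beside them. The values below are log2 changes, shBcat minus shGFP.

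Higher in QKO and lower in V6.5 cells were 9 genes. Nphs1 was at 0.63 in QKO and -0.93 in V6.5 cells, and its antisense partner Nphs1os at 0.56 and -1.33. Eomes was at 0.48 and -1.47, past the threshold in both lines (adjusted p = 0.047 and 0.0429, limma). Manba was at 0.39 and -0.69, and Tdgf1 at 0.30 and -0.45. Nkx1-2 was at 0.53 and -3.15. Of the 2-cell genes, Zscan4e was at 0.31 and -2.92, Zscan4b at 0.33 and -3.08, and Tcstv1 at 0.36 and -1.42.

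Lower in QKO and higher in V6.5 cells were 5 genes. Tagln was at -2.49 in QKO and 1.82 in V6.5 cells, and Grb10, an imprinted adaptor gene, at -0.78 and 0.83. Both followed the fibroblast score in QKO cells, as did the stress gene Nupr1 at -1.27 and 0.86. Ddit3, which encodes the stress factor CHOP, was at -1.01 and 1.148. Krt18, a simple epithelial keratin, was at -0.29 and 1.07.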

How the results depend on the processing

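The count of 334 called genes was 570 with a pseudocount of 0.1, 14 with no filter, 855 with a minimum of 5 TPM, 19 without the variance trend and robust moderation, 79 with a minimum of 2-fold, and 0 with the fibroblast score as a covariate. Leaving out 1 library at a time gave 8 to 964 calls. Scaling by median of ratios moved the median log2 change of all genes from -0.04 to 0.01 and the share of calls that rose from 27.2% to 49.4%. Same-numbered libraries of the 2 groups had deviations correlated at -0.01, -0.04 and 0.13, so the numbers were not taken as pairs. With the replicate block 138 genes were called, 99 of them among the 334. Ctnnb1 kept its direction in every fit. Its log2 change was -3.18 to -2.80 with 1 library left out and -2.59 with the score as a covariate, which lost the call. The 260 genes that did not overlap at 2-fold or more became 493 with a pseudocount of 0.1 and 85 with the followers left out. The 651 followers became 164 with a range of at least 1, and 188 by a correlation of 0.9 over the deviations of all 6 libraries. Of 56 called named genes, 6 changed sign with the score as a covariate, where none passed in limma: Pcdh7 (0.22), Bmper (0.0693), Phlda1 (0.0682), Jak1 (0.0105), Sgce (0.0559) and Hprt (0.38). No other alternative changed the sign of a called named gene, but many calls were lost. Of the 56, 2 kept the call without shGFP replicate 1, 28 without shGFP replicate 2 and 53 without shGFP replicate 3. Without shBcat replicate 1, 2 or 3 it was kept by 40, 3 and 4. With no filter 8 kept it, without the variance trend and robust moderation 9, with the replicate block 21 and with median-of-ratios scaling 50. The cause of these differences between fits was not tested. Depth is unknown, so no limit on low genes is given.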

Other observations

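Of the genes called outside the followers, 69 bore only predicted names or were pseudogenes or genes of small RNAs or ribosomal proteins, 40 that rose and 29 that fell. The following were picked after their values were seen. Gm10222 had the largest rise of all genes tested, at 3.46, 0.78 and 0 TPM in shGFP replicates 1, 2 and 3 and at 233, 279 and 345 TPM in the shBcat replicates (log2 change 7.15, SE 0.55, adjusted p = 0.0187, limma). Gm47302 went the other way, from 33.2, 32.1 and 14.01 to 1.13, 1.47 and 3.26 TPM (log2 change -3.19, SE 0.41, adjusted p = 0.0408). Gm20388 rose from 49.1, 50.02 and 54.1 to 91.2, 82.8 and 88.6 TPM, with the smallest adjusted p of any gene that rose among these 69 (log2 change 0.77, SE 0.05, adjusted p = 0.00649). Mir692-2 and Mir692-3 are listed with identical values in every library, at 166, 182 and 194 against 408, 331 and 456 TPM. Genes of these kinds share sequence with others, so their values are uncertain.

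Within the shBcat libraries, Ctnnb1 and the fibroblast score had the same order. Replicates 1, 2 and 3 held 48.4, 62.4 and 82.4 TPM of Ctnnb1 and scored 3.28, 3.53 and 3.69. Among the shGFP libraries the order was not shared: replicate 2 had the highest score, 6.37, and the least Ctnnb1, 490 TPM.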
